A study of Mus musculus with 9 samples.

Results

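The genes described here build and load the cilium that nearly every cell type carries, the primary cilium, as well as the motile cilia of ependymal cells. They are a list of 31 genes chosen by name: the subunits of the intraflagellar transport trains, their kinesin motor, the BBSome, the transition zone, the basal body and the ciliary membrane. Of these, 30 were measured among 19938 genes with a probe set that carries a single gene symbol, each by 1 probe set, and Arl13b was not analysed here. The list was compared between genotypes to ask whether lower levels of cilium genes in animals without Prdm16, a transcription regulator with zinc fingers, are limited to genes of motile cilia.

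RNA came from uncultured cells dissected from the ventricular zone, the layer lining the brain ventricles, of newborn C57BL/Ka mice. Affymetrix Mouse Gene ST 1.0 arrays measured 3 genotypes with 3 arrays each. These were Prdm16+/+, called WT here, Prdm16LacZ/+, called HET, and Prdm16LacZ/LacZ, called KO. The strain label was the same for all, and the labels name no treatment. The labels do not say that the arrays of a genotype came from separate animals, so p-values measure only how far these arrays scatter, and part of that scatter may be technical. The labels name no promoter or Cre that would limit the LacZ allele to a cell type.

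An intraflagellar transport train carries cargo along the microtubules of the cilium. Complex B and the motor kinesin-2 move it towards the tip, and complex A with dynein-2 brings it back. The BBSome is an adaptor that takes membrane receptors out of the cilium, and the transition zone at the base acts as the gate. In neural progenitors the primary cilium projects into the ventricle and is the site where Hedgehog signals are read.

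Values are log2 expression after RMA, which removes background, makes arrays comparable and combines the probes of each probe set. Array medians ran from 5.80 to 5.92. Prdm16 lay at 7.62, 7.57 and 7.23 in WT, 6.995, 7.34 and 6.998 in HET, and 5.69, 6.41 and 6.17 in KO, and fell in KO against WT by 1.38 (SE 0.18, adjusted p = 0.010). Its call was lost without WT replicate 1 (adjusted p = 0.076), without WT replicate 2 (0.069) and when the HET arrays were left out of the fit (0.080). Radial glia markers averaged between 8.42 and 8.65 per array and neuron markers between 9.25 and 9.48, so the dissected tissue held both. Xist, read only from the inactive X chromosome of females, lay at 10.035 in WT replicate 1, 10.735 in HET replicate 1 and 10.497 and 11.002 in KO replicates 2 and 3, and between 4.42 and 4.99 in the other arrays. Each genotype thus held arrays of high and of low Xist, so its arrays were not all repeats of the same RNA. The share of high arrays was larger in KO than in WT or HET. Whether arrays of like Xist came from separate animals is not stated.

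None of the 30 genes passed the test in any of the 3 comparisons, by limma with Benjamini-Hochberg adjustment over all 19938 genes at an adjusted p under 0.05. Over all genes, 0.451% passed in KO against WT, 0% in HET against WT and 0.206% in KO against HET. At an unadjusted p under 0.05, 3 of the 30 lay lower in KO than in WT (2.87% of all genes did) and 0 higher (3.28%). The same threshold gave 9 lower in KO than in HET (3.30%) and 0 higher (2.87%), and in HET against WT 0 lower (1.66%) and 1 higher (2.40%). The KO arrays lay below every WT array for 6 of the 30 genes (4.34% of all genes) and above every WT array for 0 (5.63%). The 6 were Ift46, Ift74, Ift80, Ttc8, Tmem67 and Rpgrip1l. They lay below every HET array for 5 (3.09%) and above for 0 (3.45%), and the HET arrays lay below every WT array for 0 (3.10%) and above for 1, Bbs5 (3.75%).

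**Figure D1:**
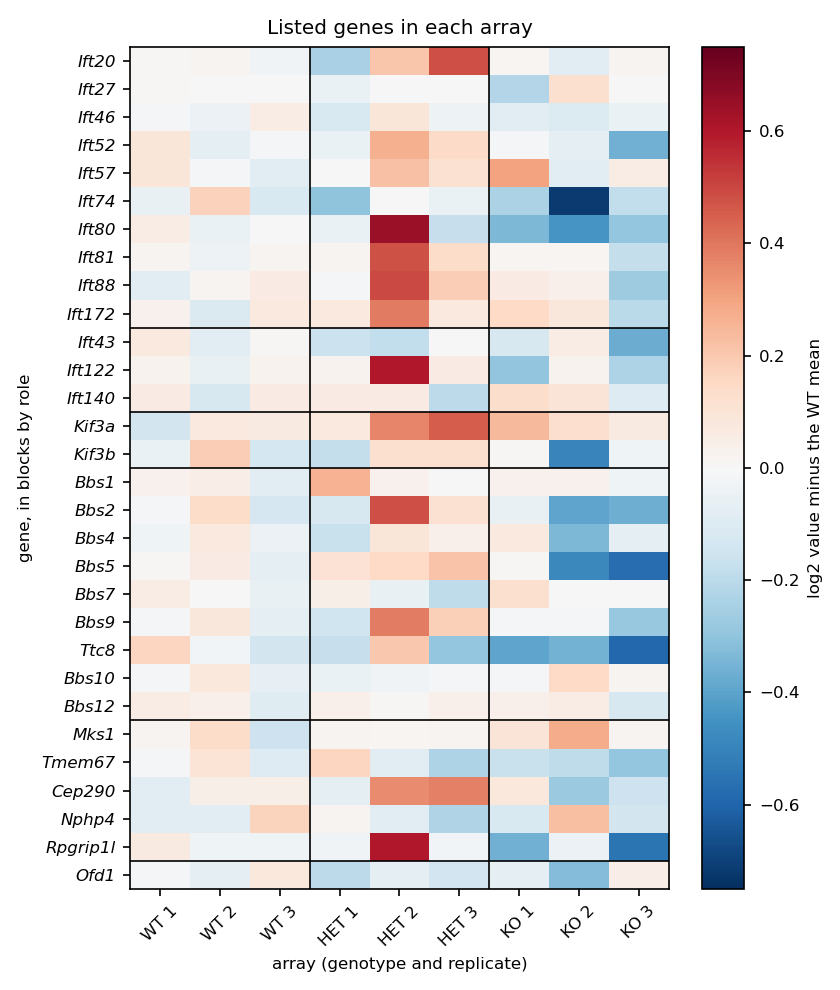
Log2 value of each of the 30 genes in each of the 9 arrays, minus the mean of the WT arrays, in blocks by role; red is above and blue below the WT mean. HET replicate 2 is redder than the other HET arrays in several blocks, and KO replicate 3 is the bluest KO array, lowest of its genotype for 16 genes.

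The changes were small. In KO against WT the median log2 change was -0.09, against 0.01 over all genes, with quartiles of -0.17 and 0.01 and extremes of -0.45 and 0.15. Of the 30 genes, 22 lay below 0, a share of 73.3% where all genes gave 47.3%. The unadjusted 95% interval of 24 of the 30 excluded a fall of 1.5-fold, and that of all 30 excluded a fall of 2-fold. Over all genes, the interval excluded a fall of 1.5-fold for 19283 of 19938 and of 2-fold for 19832. The list thus excluded a 1.5-fold fall less often than genes at large. All of these are fitted to 3 arrays per genotype, and a change that did not pass may still be present within its interval.

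**Figure D2:**
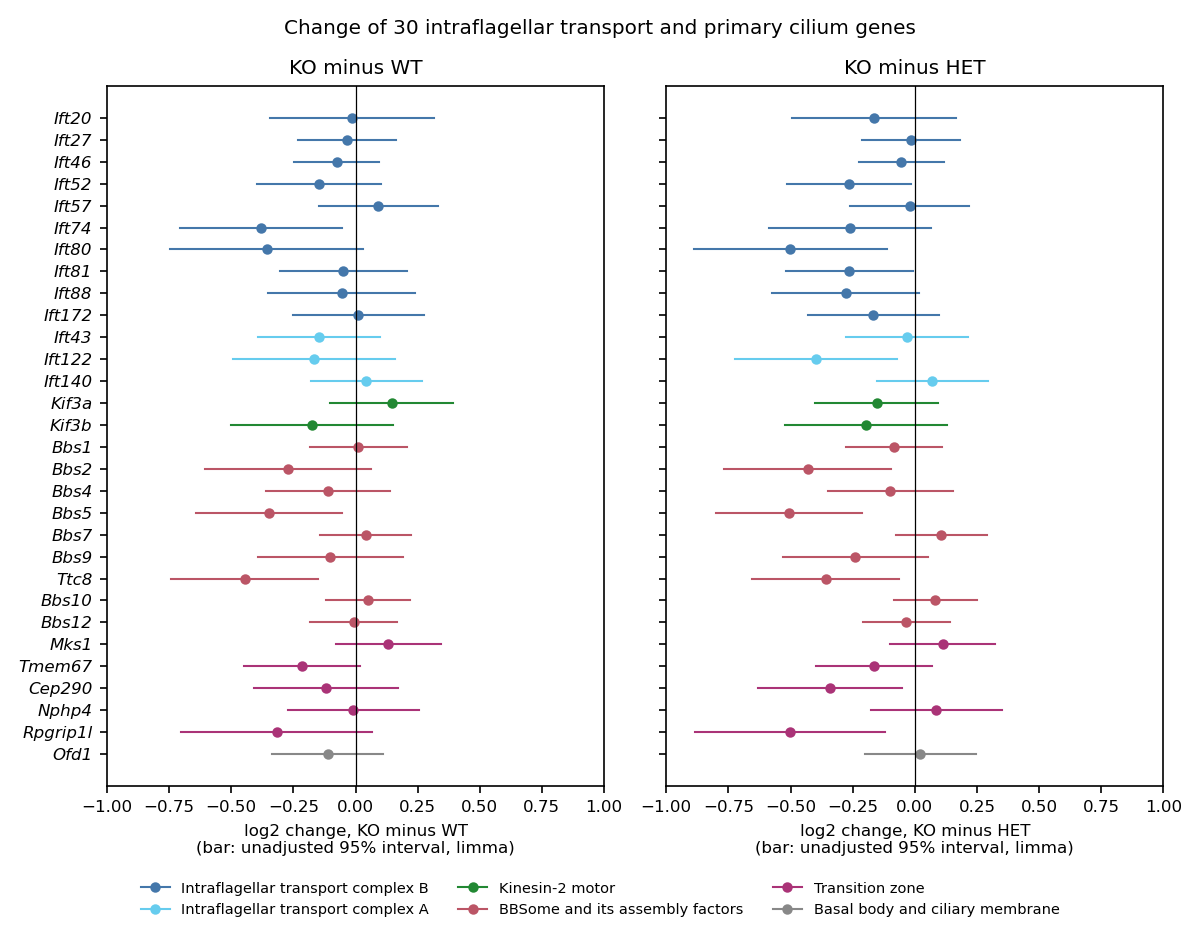
Log2 change of the 30 genes in KO against WT (left) and KO against HET (right), with the unadjusted 95% interval from limma as a bar and the role as the colour. Points range from -0.45 to 0.15 on the left and from -0.50 to 0.11 on the right, and no gene passed after adjustment.

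Complex B forms the body of the train that moves outward, and 10 of its genes were measured. In KO against WT 8 of them lay below 0, with a median of -0.05, and 1 had an unadjusted p under 0.05. That gene was Ift74, which with Ift81 binds tubulin as cargo. Ift74 lay at 7.56, 7.79 and 7.51 in WT, 7.32, 7.62 and 7.57 in HET, and 7.39, 6.90 and 7.43 in KO. The KO arrays lay below the WT arrays, KO replicate 2 by far the most, while HET and KO overlapped. The log2 change was -0.38 (SE 0.15, interval -0.71 to -0.05, adjusted p = 0.71), and -0.21 without KO replicate 2.

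Ift80, a complex B subunit whose human counterpart is a gene of skeletal ciliopathies, lay at 6.22, 6.11 and 6.16 in WT, 6.11, 6.81 and 5.99 in HET, and 5.82, 5.72 and 5.87 in KO. All KO arrays lay below all others, and HET replicate 2 stood above the rest. Its log2 change was -0.36 (SE 0.17, adjusted p = 0.85) against WT and -0.50 (SE 0.17, adjusted p = 0.67) against HET. Without HET replicate 2 the change against HET was -0.25.

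Ift52, a core subunit that anchors others of the complex, lay at 6.69, 6.53 and 6.59 in WT, 6.56, 6.87 and 6.75 in HET, and 6.59, 6.54 and 6.25 in KO. The genotypes overlapped, and the log2 change was -0.15 (SE 0.11) against WT and -0.26 (SE 0.11) against HET. Without KO replicate 3 the change against WT was -0.04. Ift81, the partner of Ift74, lay at 7.18, 7.12 and 7.18 in WT, 7.18, 7.64 and 7.30 in HET, and 7.18, 7.17 and 6.98 in KO. KO lay just below HET, by 0.26 on the log2 scale (SE 0.12, adjusted p = 0.80), and 0.05 below WT. The other 6 genes of complex B, Ift20, Ift27, Ift46, Ift57, Ift88 and Ift172, had log2 changes between -0.08 and 0.09 in KO against WT. The KO arrays of Ift46 lay below its WT arrays, at a change of -0.08 (SE 0.08). Ift88, the subunit altered in the Tg737 mouse model of polycystic kidney disease, was among them at -0.06 (SE 0.13).

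Complex A carries the return journey and the import of membrane proteins, and none of its 3 measured genes had an unadjusted p under 0.05 in KO against WT. Ift122 lay at 6.06, 5.98 and 6.06 in WT, 6.06, 6.64 and 6.10 in HET, and 5.74, 6.06 and 5.80 in KO. HET replicate 2 was again the highest array. KO replicate 2 held the same value, 6.061, as WT replicates 1 and 3 and HET replicate 1. Its log2 change was -0.17 (SE 0.15) against WT and -0.40 (SE 0.15, adjusted p = 0.70) against HET.

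Ift43, a small subunit of the complex, lay at 6.89, 6.73 and 6.82 in WT, 6.65, 6.63 and 6.81 in HET, and 6.69, 6.87 and 6.44 in KO, and KO against WT gave -0.15 (SE 0.11) on the log2 scale, or -0.03 without KO replicate 3. Ift140, a core subunit, lay at 6.62, 6.44 and 6.62 in WT, 6.62, 6.62 and 6.36 in HET, and 6.69, 6.66 and 6.46 in KO, with a log2 change of 0.04 (SE 0.10). For both genes the 3 genotypes overlapped.

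The paired motor subunits of kinesin-2 differed in sign. Kif3a lay at 9.08, 9.29 and 9.28 in WT, 9.29, 9.58 and 9.67 in HET, and 9.46, 9.34 and 9.28 in KO. It was the 1 gene with an unadjusted p under 0.05 in HET against WT, at a log2 change of 0.30 (SE 0.11, adjusted p = 0.99), and it lay at 0.15 (SE 0.11) in KO against WT. Kif3b lay at 8.01, 8.24 and 7.93 in WT, 7.88, 8.18 and 8.18 in HET, and 8.07, 7.57 and 8.03 in KO. Its KO mean was 0.17 below WT (SE 0.15), with KO replicate 2 as the only KO array below the WT range.

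The BBSome held the largest change of the list in KO against WT. Ttc8, also known as BBS8, a subunit of the adaptor, lay at 7.78, 7.60 and 7.49 in WT, 7.45, 7.83 and 7.33 in HET, and 7.23, 7.27 and 7.03 in KO. The KO arrays all lay below the other 6 arrays. Against WT the log2 change was -0.45, or 1.36-fold lower (SE 0.13, interval -0.74 to -0.15, adjusted p = 0.41), and -0.36 (SE 0.13, adjusted p = 0.70) against HET. Over the 19 alternative settings the change against WT ran from -0.52 to -0.37 and the adjusted p from 0.19 to 1.

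Bbs5, the subunit that binds membrane lipids, lay at 6.67, 6.72 and 6.59 in WT, 6.77, 6.81 and 6.87 in HET, and 6.67, 6.18 and 6.09 in KO. KO replicates 2 and 3 stood well below all other arrays. KO replicate 1 lay within the WT range, at the same value as WT replicate 1, 6.667. Its log2 change was -0.35 (SE 0.13, adjusted p = 0.69) against WT and -0.50 (SE 0.13, interval -0.80 to -0.21, adjusted p = 0.38) against HET. Without KO replicate 1 the fall against HET passed, at -0.68 (adjusted p = 0.025), the only call among the 30 genes in any setting run. Both of the low KO arrays had high Xist. So did WT replicate 1, at 6.67, and HET replicate 1, at 6.77, which lay with the other arrays of their genotypes. With Xist as a covariate the changes were -0.27 against WT and -0.44 against HET, neither of which passed.

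Bbs2, a subunit of the BBSome core, lay at 7.60, 7.75 and 7.49 in WT, 7.49, 8.09 and 7.72 in HET, and 7.55, 7.22 and 7.25 in KO. KO replicate 1 overlapped with WT, and HET replicate 2 stood highest. The log2 change was -0.27 (SE 0.15) against WT and -0.43 (SE 0.15, adjusted p = 0.67) against HET, the latter -0.27 without HET replicate 2. The other 4 BBSome subunits, Bbs1, Bbs4, Bbs7 and Bbs9, lay between -0.11 and 0.04 in KO against WT. Bbs10 and Bbs12, chaperonin-like proteins that help to assemble the BBSome, lay at 0.05 (SE 0.08) and -0.01 (SE 0.08). The values of Bbs12, 4.45 to 4.63, were near the lower quartile of the arrays, which ran from 4.53 to 4.68, and a value that low could be background.

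**Figure D3:**
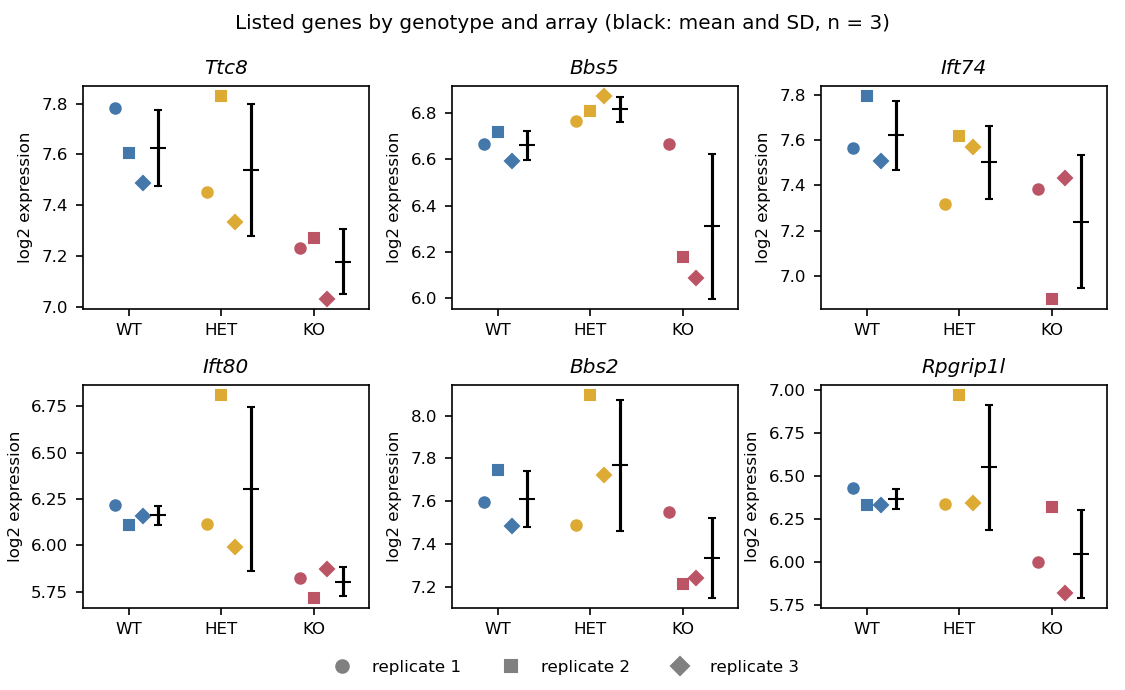
Log2 expression of Ttc8, Bbs5, Ift74, Ift80, Bbs2 and Rpgrip1l in each array (symbol for the replicate number, colour for the genotype), with the genotype mean and SD in black. The KO arrays of Ttc8 and Ift80 lie below all others, HET replicate 2 stands high in Ift80, Bbs2 and Rpgrip1l, and KO replicate 1 of Bbs5 lies with WT. Each axis covers only the range of its gene and does not start at 0.

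The transition zone genes lay below 0 in KO against WT in 4 of 5 cases, with a median of -0.12, and none had an unadjusted p under 0.05. Rpgrip1l, a scaffold of the gate, lay at 6.43, 6.33 and 6.33 in WT, 6.34, 6.97 and 6.34 in HET, and 6.0, 6.32 and 5.82 in KO. KO lay below both other genotypes, by a narrow margin for KO replicate 2. The log2 change was -0.32 (SE 0.17) against WT and -0.50 (SE 0.17, adjusted p = 0.65) against HET, the latter -0.29 without HET replicate 2.

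Tmem67, a receptor-like membrane protein of the zone, lay at 8.12, 8.22 and 8.03 in WT, 8.29, 8.04 and 7.89 in HET, and 7.96, 7.93 and 7.83 in KO. KO lay below WT but overlapped with HET, and KO against WT gave -0.22 (SE 0.11, adjusted p = 0.85) on the log2 scale. Cep290, which links the membrane to the microtubules at the gate, lay at 6.43, 6.55 and 6.55 in WT, 6.45, 6.86 and 6.89 in HET, and 6.59, 6.23 and 6.35 in KO. Its change was -0.12 (SE 0.13) against WT and -0.34 (SE 0.13, adjusted p = 0.73) against HET. Mks1 lay at 6.07, 6.19 and 5.90 in WT, 6.07, 6.07 and 6.07 in HET, and 6.15, 6.33 and 6.07 in KO, a change of 0.13 (SE 0.10), and Nphp4 changed by -0.01 (SE 0.12).

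Ofd1, a centriolar protein encoded on the X chromosome, stood for the basal body. It lay at 8.16, 8.11 and 8.26 in WT, 7.98, 8.11 and 8.04 in HET, and 8.11, 7.86 and 8.23 in KO. The log2 change in KO against WT was -0.11 (SE 0.10), -0.09 with Xist as a covariate and -0.01 without KO replicate 2.

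The HET mean lay outside the WT and KO means for most of the list, as it did for most of all genes. It was above both other means for 17 of the 30 genes (33.8% of all genes) and below both for 5 (6642 of 19938). The means of WT, HET and KO followed in falling order for 7 (15.1%). The median change in HET against WT was 0.06, with 18 of the 30 genes above 0 and 12 below it (48.4% of all genes lay below). In KO against HET the median was -0.16, with 24 of the 30 below 0 (48.9% of all genes). These comparisons share the HET arrays, and KO against HET is low where HET against WT is high.

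Single arrays carried part of this. HET replicate 2 was the highest HET array for 16 of the 30 genes (28.2% of all genes), and HET replicate 1 the lowest for 19 (29.9%). KO replicate 1 was the highest KO array for 14 genes (20.9%), and KO replicate 3 the lowest for 16 (31.7%). The median SD of the 30 genes was 0.16 in HET and 0.17 in KO against 0.08 in WT, and over all genes 0.12, 0.13 and 0.08. Without HET replicate 2 the median in HET against WT turned from 0.06 to -0.01, and the count at an unadjusted p under 0.05 in KO against HET dropped from 9 to 2. HET replicate 2 also stood apart in Ttr, the transthyretin gene that marks the epithelium of the choroid plexus, at 8.16 against 5.44 to 6.45 in the other 8 arrays. The 8 choroid plexus markers averaged 5.47 in that array, the highest of all 9. Calml4 was also highest there, at 5.43, Otx2, at 6.80, lay within the range of the other arrays, as did Folr1, Kl and Clic6, and Kcne2 and F5 were lowest there, at 4.62 and 4.17. The part of choroid plexus cells in the high values of HET replicate 2 was not tested. The count of 9 was 5 without KO replicate 2 and 3 without KO replicate 3. In KO against WT the median moved from -0.09 to -0.04 without KO replicate 3, and likewise to -0.04 with Xist as a covariate. The median of the motile axoneme genes described next moved from -0.17 to -0.14 without KO replicate 3, and to -0.18 with Xist as a covariate. The part of sex in the levels was not tested. Leaving out 1 array moved the KO against WT change of 26 of the 30 genes by over 1.5 times. A change near 0 exceeds that ratio easily, and the share over all genes was not computed. The count of 3 in KO against WT became 6 without HET replicate 2 and 5 without HET replicate 3. It became 2 without WT replicate 1 or KO replicate 3, and 1 without WT replicate 2. The 1 gene in HET against WT became 6 genes without HET replicate 1, and 0 without HET replicate 2, HET replicate 3 or WT replicate 1.

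**Figure D4:**
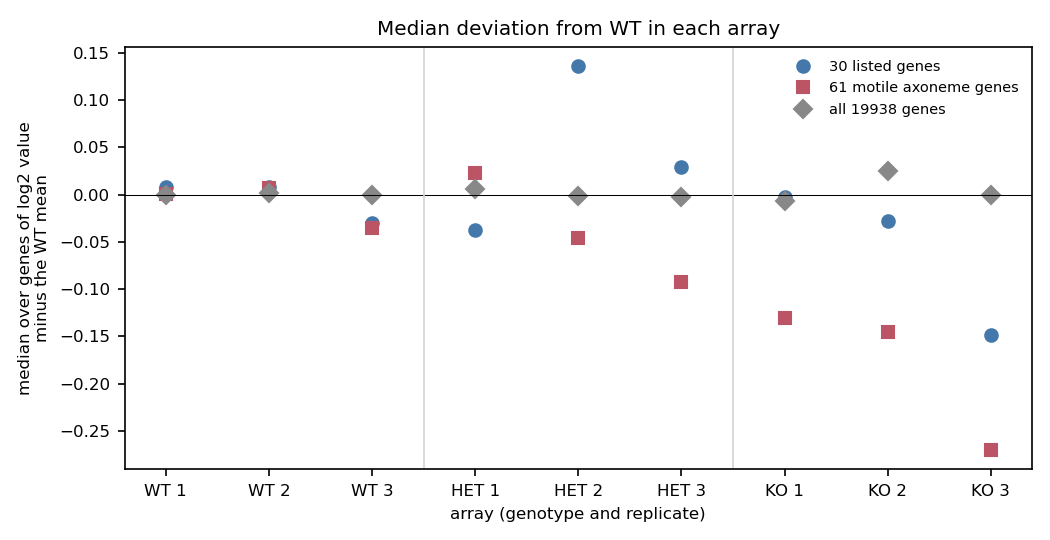
Median over genes of the log2 value minus the WT mean, in each array, for the 30 genes (circles), 61 genes of the motile axoneme (squares) and all 19938 genes (diamonds). The circles reach 0.14 in HET replicate 2 and -0.15 in KO replicate 3, while the squares lie at -0.13, -0.15 and -0.27 in the KO arrays.

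Genes of the motile axoneme, the beating apparatus that a primary cilium lacks, were set beside the list. Of 65 such genes 61 were measured, and 51 lay below 0 in KO against WT, with a median of -0.17 and quartiles of -0.37 and -0.04. At an unadjusted p under 0.05, 22 of the 61 lay lower (2.87% of all genes) and 0 higher (3.28%). The KO arrays lay below every WT array for 24 (4.34%). The 1 call was Nme5, a nucleoside diphosphate kinase family protein of cilia and flagella, which in KO against WT fell by 1.01 in log2 units (SE 0.17, adjusted p = 0.039). Leaving out any 1 array other than KO replicate 1 took away that call, with adjusted p between 0.071 and 0.21. With the replicate block its adjusted p was 0.050, just above the threshold. Enkur, an axoneme protein, lay at -1.18 (SE 0.22, adjusted p = 0.054) and Rsph4a, a radial spoke protein, at -0.96 (SE 0.19, adjusted p = 0.077); neither passed. Rsph4a fell in KO against HET, by 1.19 (SE 0.19, adjusted p = 0.044), a call lost without any 1 array but KO replicate 1. That call was also lost with the replicate block (adjusted p = 0.068), median centring (0.063), Xist as a covariate (0.066), the mean of probe sets (0.086), array weights (0.14) and only the arrays compared (0.32).

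The lowest log2 change in KO against WT was -1.18 in the motile list and -0.45 in the shared list. Array by array, the median of the motile genes lay below the WT mean in all 3 KO arrays, at -0.13, -0.15 and -0.27. The median of the 30 shared genes lay at 0.00, -0.03 and -0.15 in those arrays. In HET the motile median was -0.06 against WT, and that of the shared genes 0.06. In KO against HET the motile median was -0.12, with 43 of 61 genes below 0. That of the shared genes was -0.16, with 24 of 30 below 0. At an unadjusted p under 0.05 in that comparison, 18 of the 61 and 9 of the 30 lay lower (3.30% of all genes). The difference between these lists was not tested, and their genes were read from the same arrays. The lists also differ in size and brightness. Without the dimmest 1 in 3 genes, 27 of the 30 and 37 of the 61 remained. Their medians in KO against WT were then -0.11 and -0.25.

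**Figure D5:**
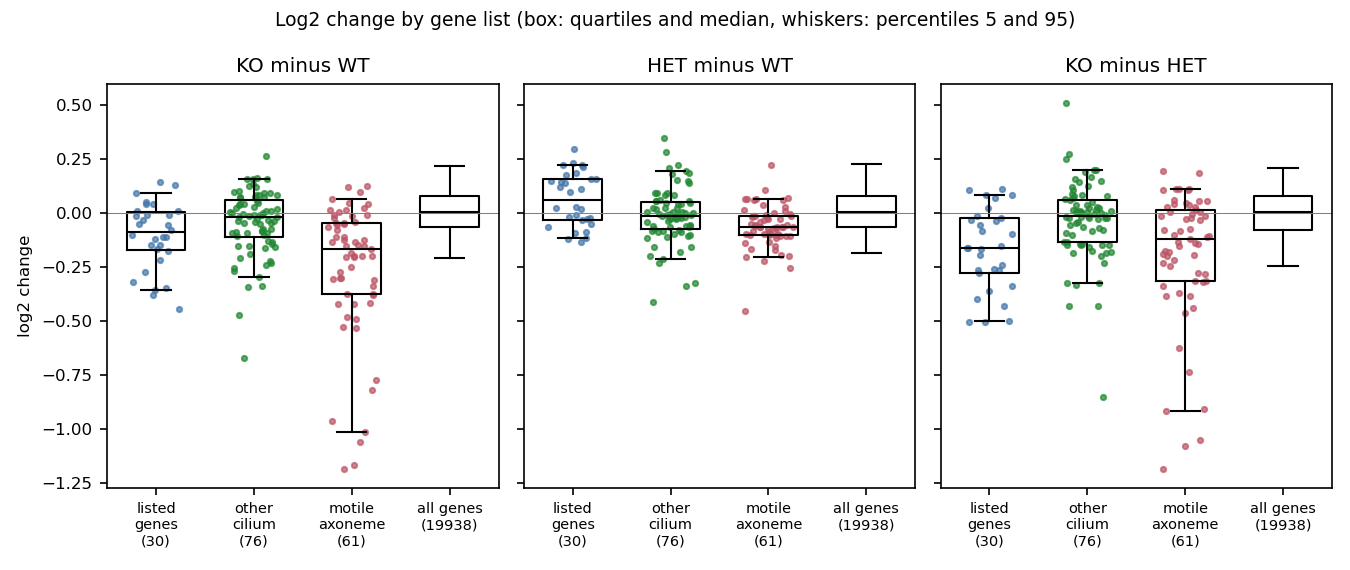
Log2 change per gene (points) in the 3 comparisons for the 30 listed genes, 76 other genes of the cilium, 61 genes of the motile axoneme and all 19938 genes (box only); boxes give median and quartiles, whiskers the percentiles 5 and 95. The motile list has a long lower tail in KO against WT, down to -1.18, that the 30 genes lack, and the 30 genes have the highest median of the 4 sets in HET against WT, 0.06.

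Another 83 genes of the cilium were listed, 63 of its machinery and 20 of the ciliary membrane and Hedgehog signalling, of which 58 and 18 were measured. None passed the test. Of the 58 machinery genes 39 lay below 0 in KO against WT, with a median of -0.04. At an unadjusted p under 0.05, 7 lay lower (2.87% of all genes) and 1 higher (3.28%). With the other 18 the count below 0 was 45 of 76 and the median -0.02. Among 18 further train subunits and motors 13 lay below 0, with a median of -0.11. Ttc30b, a complex B subunit that binds the motor, lay at 5.32, 4.97 and 4.97 in WT, 5.03, 5.39 and 5.39 in HET, and 4.52, 4.18 and 4.55 in KO. Its KO arrays lay below all others, and its log2 change was -0.67 (SE 0.14, adjusted p = 0.12) against WT and -0.85 (SE 0.14, adjusted p = 0.056) against HET. Against HET it passed without HET replicate 1 (adjusted p = 0.038) and with the trend and robust settings (0.049). Each of its KO values lay below the lower quartile of its array and could be background, so the size of these changes is uncertain. Ttc30b also has near-identical paralogs, so the probes may read more than 1 gene.

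Ttc21b, a complex A subunit, lay above WT in KO, at 0.27 (SE 0.10), and Hspb11, a small complex B subunit, below, at -0.25 (SE 0.09), with a mean of 4.41 in WT, under the lower quartile of the arrays. Of 6 other BBS genes 3 lay below 0, with Mkks, a chaperonin-like assembly factor, at -0.23 (SE 0.08), Lztfl1 at -0.15 and Sdccag8 at -0.11. Of 19 other transition zone and nephronophthisis genes 13 did, with Cc2d2a at -0.47 (SE 0.18), Rpgr at -0.30 (SE 0.12) and Tmem17 at -0.24 (SE 0.12). Of 15 basal body genes 10 did, with Sclt1, a protein of the appendages that dock the centriole to the membrane, at -0.27 (SE 0.09), Cep164 at -0.13 and Cep89 at -0.09. None of these values passed.

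The 18 measured genes of the ciliary membrane and Hedgehog signalling lay lower in KO in 6 cases, with a median of 0.04. None had an unadjusted p under 0.05 in any comparison. Gli3, the main repressor of Hedgehog targets, lay at -0.34 (SE 0.17), the receptor Gpr161 at 0.16 (SE 0.10) and the lipid phosphatase Inpp5e at 0.16 (SE 0.10).

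Regulators of cilium genes were listed as well. RFX factors bind promoters of both motile and primary cilium genes through the X-box, and Foxj1 drives motile cilia. Of 16 such genes 11 lay below 0 in KO against WT, with a median of -0.07, and none passed. An unadjusted p under 0.05 was found for 5, all lower (2.87% of all genes). Deup1, which serves centriole amplification in multiciliated cells, lay at -0.81 (SE 0.19, adjusted p = 0.17), Myb at -0.33 (SE 0.11) and Rfx3 at -0.31 (SE 0.11, adjusted p = 0.57). The KO arrays of Rfx3, at 8.91, 8.99 and 8.70, lay below the WT arrays, at 9.24, 9.23 and 9.08.

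Promoter sequences of RefSeq (GRCm38.p6), from 250 bases before to 50 after the start site, were matched by symbol to 27 of the 31 genes. The RFX X-box was searched on both strands as a pair of half-sites at most 3 bases apart, and so was the single half-site GTTGCC, which can lie inside an X-box match. The X-box was found for 2 of the 27 genes (7.41%), Bbs1 and Ift57, against 1.75% of 27025 genes. The half-site was found for 12 of the 27 (44.4%), against 14.1% of all genes and 21 of 52 motile axoneme genes (40.4%), of which 9 (17.3%) held an X-box. These shares were not matched for base composition, and a match is only a match of letters.
The windows shown lie wholly before the start site and hold an X-box match of Ift57, 73 bases before it, and the half-sites of 5 other genes. Each is read 5′ to 3′ on the strand of the gene, with 12 flanking bases on each side; capitals mark the X-box, or GTTGCC or its reverse complement.
Ift57, chr16:49699195-49699232, plus strand: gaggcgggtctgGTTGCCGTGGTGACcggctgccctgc
Bbs7, chr3:36613493-36613522, minus strand: gaatgcgccccgGTTGCCttggaaaccggc
Mks1, chr11:87853179-87853208, plus strand: gccagcgtctccGTTGCCaggggaacgagg
Ift140, chr17:25015965-25015994, plus strand: gcgtgttgtgacGGCAACctcgcgcccttg
Kif3a, chr11:53567259-53567288, plus strand: caccccgcaggcGTTGCCccagtctagcgt
Arl13b, chr16:62847204-62847233, minus strand: acagacgctccaGTTGCCtagttaccagag

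The 5 measured genes shown all lay above 0 in KO against WT: Ift57 at 0.09 (SE 0.11), Bbs7 at 0.04 (SE 0.08), Mks1 at 0.13, Ift140 at 0.04 and Kif3a at 0.15. The 11 measured genes with the half-site had a median of 0.01 in KO against WT, with 4 below 0. These 4 were Bbs5 at -0.35, Ift88 at -0.06, Ift27 at -0.03 and Nphp4 at -0.01. Their windows reach past the start site and are therefore not shown. The 15 with a promoter sequence and no half-site had a median of -0.12, with 14 below 0. The sequences were looked at with these values known, and the difference was not tested.

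Markers of cell types were read beside these values. The 9 ependymal markers averaged 5.26 to 5.31 in the WT arrays, 5.10 to 5.26 in HET and 5.00 to 5.21 in KO, with 8 of 9 below 0 in KO against WT and 1 of 9 below the lower quartile of every array. Of these markers, Cfap126 is also in the motile axoneme list, Foxj1 among the regulators and S100b among the astrocyte markers, so the lists are not independent. The 7 astrocyte markers averaged 7.26 to 7.47 in WT, 7.11 to 7.48 in HET and 6.80 to 6.92 in KO. Their median change in KO against WT was -0.60. Below 0 at an unadjusted p under 0.05 lay 5 of 7 (2.87% of all genes), and the water channel Aqp4 was the 1 call. The 8 choroid plexus markers, of a ciliated epithelium, averaged 5.20 to 5.23 in WT, 5.10 to 5.47 in HET and 5.28 to 5.39 in KO, with 4 of 8 below 0 and F5, which encodes a coagulation factor, as the 1 call (log2 change 0.89, adjusted p = 0.0051). The 11 radial glia markers averaged 8.52 to 8.65 in WT and 8.45 to 8.58 in KO, with 6 of 11 below 0, and the 9 neuron markers 9.25 to 9.32 and 9.34 to 9.47, with 1 of 9 below 0. Below 0 lay 3 of 6 oligodendrocyte lineage, 2 of 7 microglia and 3 of 7 endothelial and pericyte markers, with medians of 0.00, 0.01 and 0.01 and no call. The part of these cell types in the levels of the cilium genes was not tested, and fewer cells of a type cannot be told apart from less RNA per cell in bulk tissue.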

How the data were processed

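The deposited values of the authors are log2 expression of 28940 probe sets on 9 arrays. RMA, affy and limma appear in the submitters' processing notes, with no version or order. A probe set annotation was not named in the sources used here. In 17 of the 30 probe sets of the list, and in 17809 of all 28940, at least 2 arrays hold the same value, which narrows the measured spread. Of the probe sets, 21789 had 1 gene symbol, 1621 several and 5530 were not listed in the supplied annotation; those with 1 symbol were kept, with the highest mean per gene, which gave 19938 genes.

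All 9 arrays entered 1 limma fit (lmFit and eBayes, limma 3.58.1, R 4.3.3, two-sided, checked on simulated data) with a mean per genotype, without further normalization or filter, and p-values were adjusted over all genes by Benjamini-Hochberg. The number of arrays limits the precision. The members and lists were chosen with earlier results of these data known, so lists are described by counts and medians and not tested. Every member with an unadjusted p under 0.05, or among the 3 largest changes of its role, is given by array; of each pathway or comparison list, the 3 genes with the smallest p in KO against WT and any call. Marker lists are summarised. Aqp4, F5, the choroid plexus markers and the genes of the promoter windows were named after their values were seen. Same-numbered arrays did not deviate together (r between -0.34 and 0.06 over 9 pairs). Of the promoter windows before a start site, 1 is not reported here.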

Additional observations from a re-analysis of the deposited data

How the results depend on the processing

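The list had 0 calls in KO against WT and in HET against WT under all 19 alternatives, and 0 in KO against HET except without KO replicate 1 (0 to 1 over the arrays left out). The smallest adjusted p of a listed gene ran from 0.056 to 1 in KO against WT, 0.19 to 1 in HET against WT and 0.025 to 0.98 in KO against HET. With 1 array left out, the median of the list ran from -0.11 to -0.04 in KO against WT, -0.014 to 0.097 in HET against WT and -0.24 to -0.12 in KO against HET. The motile median ran from -0.21 to -0.14 and its calls from 0 to 3. The counts at an unadjusted p under 0.05 ran from 1 to 6, 0 to 6 and 2 to 13 in the 3 comparisons.

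Those counts were 5, 2 and 5 with only the arrays compared, 5 in KO against WT and 3 in HET against WT with array weights, and 2 in HET against WT with quantile normalization or Xist as a covariate. Motile calls in KO against WT were 2 with the replicate block, with trend and robust settings, with quantile normalization and with the dimmest 1 in 3 genes left out, 3 at an adjusted p under 0.10, and 0 with only the arrays compared, median centring or Xist as a covariate. Nme5 was not among the calls with the replicate block (adjusted p = 0.0504), where Enkur was (0.018), nor with the mean of probe sets (0.072). Leaving out the dimmest genes took away 3 of the 30 listed genes and left 37 of the 61 motile genes. Of those 37 motile genes 29 lay below 0, with a median of -0.25. The replicate block gave 4 listed genes at an unadjusted p under 0.05 in KO against WT and 0 calls; arrays that share a number did not deviate together. The sign of a listed gene changed in 28 of 567 alternative values in KO against WT, in 26 in HET against WT and in 17 in KO against HET, none of them called. With 3 arrays per genotype, changes inside the intervals given could be missed.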
